A study of Mus musculus with 18 samples.

Results

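The HoxB cluster of the mouse lies on chromosome 11, and its genes Hoxb1 to Hoxb8 were followed here with the antisense noncoding RNAs Hoxb3os and Hoxb5os. These 10 genes were taken by their symbols from the deposited FPKM table, which lists 55138 genes, and all 10 were found there and in the count table. The question was one of position: how high each gene stood, and how much it changed, with its distance from the interval deleted in the mutants. RNA was sequenced from mouse embryos whose heads had been removed, in 18 libraries that form 6 groups of 3. At E9.5 (embryonic day 9.5) the groups were wild type and homozygous HoxB Del(i9-13). At E10.5 they were wild type, homozygous HoxB Del(i9-13), homozygous HoxB Del(i9-13):Hoxb13hd and homozygous Hoxb13hd, and wild types were littermates of mutants per the labels. The name Del(i9-13) was taken to mean that DNA between Hoxb9 and Hoxb13 is missing. Its breakpoints, the meaning of the letters hd, the strain and the number of embryos in a library are not stated in the labels. RNA was enriched for poly(A) at E9.5 and depleted of ribosomal RNA at E10.5, so stage and library type coincide. Nothing in the labels says that the 3 libraries of a group came from separate embryos or litters, and p-values cover only the spread among these libraries.

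Hox genes encode homeodomain transcription factors that give cells of the body axis their position. Within a cluster the genes stand broadly in the order in which they are switched on and in which their domains begin along the axis, with Hoxb1 the earliest. Hoxb1 marks the fourth segment of the hindbrain and is also expressed early in the posterior end of the embryo. Hoxb2 and Hoxb3 act in the hindbrain and the neural crest of the pharyngeal arches, Hoxb4 and Hoxb5 in the posterior hindbrain and cervical levels, and Hoxb6, Hoxb7 and Hoxb8 in the spinal cord and mesoderm of the trunk. Hoxb13 stands apart from the other genes at the 5′ end of the cluster and is normally switched on late, at the posterior end of the body.

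Coordinates are those of the deposited FPKM table, build mm10. The interval from the end of Hoxb13 to the start of Hoxb9 spans 74.0 kb (chr11:96197447-96271457). Distances below run from that Hoxb9 edge to the annotated start of each gene. Hoxb8 is nearest at 10.4 kb (chr11:96281905-96285315), followed by Hoxb7 at 15.2 kb (chr11:96286623-96290162), Hoxb6 at 21.0 kb (chr11:96292476-96301569) and Hoxb5 at 32.1 kb (chr11:96303512-96306120). Hoxb4 begins at 46.8 kb (chr11:96318267-96321638), Hoxb3 at 51.9 kb (chr11:96323326-96347930), Hoxb2 at 80.2 kb (chr11:96351631-96354012) and Hoxb1, the farthest, at 94.3 kb (chr11:96365752-96368256). In the files Hoxb8 is ENSMUSG00000056648 and Hoxb1 ENSMUSG00000018973. These 8 genes encode proteins and are all on the forward strand. Hoxb5os (chr11:96291024-96306910, start at 35.5 kb) and Hoxb3os (chr11:96343072-96354691, start at 83.2 kb) are transcribed from the reverse strand. Of the exon bases of Hoxb3os, 76.2% lie opposite exons of Hoxb2 or Hoxb3, against 14.4% for Hoxb5os opposite Hoxb5. The kits were stranded per the labels' protocols, but no source used here states the strand setting of the counting, so reads of Hoxb3os, Hoxb2 and Hoxb3 in their shared exons cannot be assigned with certainty.

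The 250 bases before the RefSeq start of the nearest and of the farthest gene are shown, since the results below turn on these ends of the gene row. Both were taken from RefSeq on GRCm38.p6, forward strand, and capitals mark a match to TGATNNAT, searched on both strands and found in reverse in Hoxb8, the core of the site that Hox proteins bind together with their partner Pbx.
Hoxb8, chr11:96281655-96281904: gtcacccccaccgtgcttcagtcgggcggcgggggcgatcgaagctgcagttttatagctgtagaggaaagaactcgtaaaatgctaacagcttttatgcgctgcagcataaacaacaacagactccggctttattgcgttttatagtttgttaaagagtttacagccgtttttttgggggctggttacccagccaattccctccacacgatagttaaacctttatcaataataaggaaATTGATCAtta
Hoxb1, chr11:96365508-96365757: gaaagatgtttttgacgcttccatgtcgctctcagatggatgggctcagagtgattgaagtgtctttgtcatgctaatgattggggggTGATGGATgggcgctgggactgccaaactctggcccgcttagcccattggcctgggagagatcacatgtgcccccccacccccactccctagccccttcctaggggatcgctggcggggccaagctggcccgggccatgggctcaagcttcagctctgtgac
Each window holds 1 match on either strand, beginning 162 bases before the start in Hoxb1 and 11 bases before it in Hoxb8. Of 32851 mouse promoter windows of the same length, 7.68% hold such a match. Searching the same windows for TTTATG, also on both strands, the core of the site bound by Cdx proteins, gave 2 matches in Hoxb8 and 0 in Hoxb1, against 10.8% of all windows with at least 1, and none overlaps the capitals. A match describes letters and not binding. Promoter sequences of 4 of the 10 genes were found in the reference table, and those of the other 6 were not used here. The windows of Hoxb4 and Hoxb3os each held 0 matches to TGATNNAT and 0 to TTTATG.

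Depth ran from 19333138 to 35934843 counts per library. In bulk RNA, fewer cells of a type and less RNA per cell cannot be told apart, and several libraries stood apart in their tissue markers. At E9.5, wild type replicate 1 had a summed level of 63.1 CPM (counts scaled to library size) over 7 tail bud and presomitic mesoderm genes, against 127 to 132 in the other wild types and 154 to 157 in Del(i9-13). At E10.5, heart muscle genes summed to 1177 CPM in wild type replicate 3 and 399 CPM in Hoxb13hd replicate 1, against 46.6 to 287 in the other 10 libraries. Liver and visceral endoderm genes reached 1818 CPM in E10.5 Del(i9-13) replicate 1, against 37.2 to 581 in the other E10.5 libraries. Forebrain and midbrain genes, whose tissue the dissection takes away, summed to at most 46.0 CPM in any library, with Six3 at 0 counts in all 4 E10.5 groups and Otx2 in 3 of them. Xist, which is expressed in female embryos, was at 1.01 to 1.25 CPM in the 3 E9.5 Del(i9-13) libraries and at 1.26, 1473 and 1555 CPM in wild type, and its part in the E9.5 values was not tested. At E10.5 it was at 698 and 549 CPM in Del(i9-13) replicates 1 and 3, and 526 and 606 CPM in Del(i9-13):Hoxb13hd replicates 2 and 3. Wild type replicate 2 had 599 CPM, Hoxb13hd replicate 1 had 697 CPM and the other E10.5 libraries 0.46 to 15.1 CPM. Its part there was not tested either.

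Levels were compared between genes in FPKM, fragments scaled to transcript length and to the mapped total of the library, since these are per length. The transcript lengths behind the deposited FPKM are not the full exon lengths for every gene. For Hoxb2 in E10.5 wild type, counts and FPKM together imply 2.31 kb, against 3.488 kb of annotated exons. At E9.5 the 8 coding genes spanned a narrow range. Hoxb8, nearest the interval, was the highest in wild type with 23.2, 21.1 and 22.0 FPKM (22.1 ± 1.07, SD, n = 3), and Hoxb5 the lowest with 8.74, 9.90 and 9.44 FPKM (9.36 ± 0.59). The order in wild type from high to low was Hoxb8, Hoxb3, Hoxb2, Hoxb6, Hoxb1, Hoxb7, Hoxb4, Hoxb5. In that order the libraries of Hoxb3 and Hoxb2 overlapped, as did those of Hoxb6 and Hoxb1 and those of Hoxb4 and Hoxb5, while other neighbours did not. Levels therefore did not fall or rise steadily along the row: over the 8 genes, Pearson's r of log2 FPKM with distance was 0.07 in E9.5 wild type, given as a description of genes that share libraries. Hoxb5os exceeded every coding gene with 56.6, 46.3 and 46.2 FPKM (49.7 ± 5.98), and its annotated exons, 696 bases in all, are the shortest of the 10. Hoxb3os was the lowest with 4.18, 3.00 and 3.10 FPKM (3.43 ± 0.65).

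At E10.5 the row was lower and less even. In wild type Hoxb2 led the coding genes with 10.7, 14.5 and 12.2 FPKM (12.5 ± 1.91), and Hoxb1 closed them with 1.47, 1.86 and 1.88 FPKM (1.74 ± 0.23), a ratio of 7.20 between the highest and lowest mean against 2.36 at E9.5. The E10.5 wild type order was Hoxb2, Hoxb3, Hoxb7, Hoxb4, Hoxb6, Hoxb8, Hoxb5, Hoxb1, and among all 10 genes 6 of 9 neighbouring pairs overlapped. By group means of FPKM Hoxb2 was the highest coding gene in all 4 E10.5 groups, but not when CPM were divided by annotated exon length, a scale added after the data were seen. On that scale Hoxb7 led in all 4, and in wild type Hoxb7, Hoxb3, Hoxb4 and Hoxb2 stood at 10.06, 9.76, 9.21 and 8.25 CPM per kb. The ratio of the highest to the lowest coding gene was then 4.45 in E10.5 wild type and 3.05 at E9.5. Hoxb8 stayed the highest and Hoxb5 the lowest at E9.5 in wild type on both scales. In FPKM Hoxb1 was the lowest coding gene in 3 of these groups (in 2 per exon length, where Hoxb5 was lower in Del(i9-13):Hoxb13hd), and in Hoxb13hd Hoxb5 took that place with 3.30, 2.52 and 2.62 FPKM while Hoxb1 stood at 3.64, 2.62 and 3.505 FPKM, values that overlap. Hoxb5os was again above every coding gene and Hoxb3os below every one, by group means, in all 6 groups. Summed over the 8 coding genes, the level was 117 ± 2.34 FPKM in E9.5 wild type and 122 ± 4.29 in E9.5 Del(i9-13). The E10.5 sums were 51.0 ± 5.38 in wild type, 56.2 ± 4.71 in Hoxb13hd, and with the deletion 52.9 ± 4.62 without hd and 53.0 ± 4.36 with it, differences that are about the size of the SDs.

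**Figure D1:**
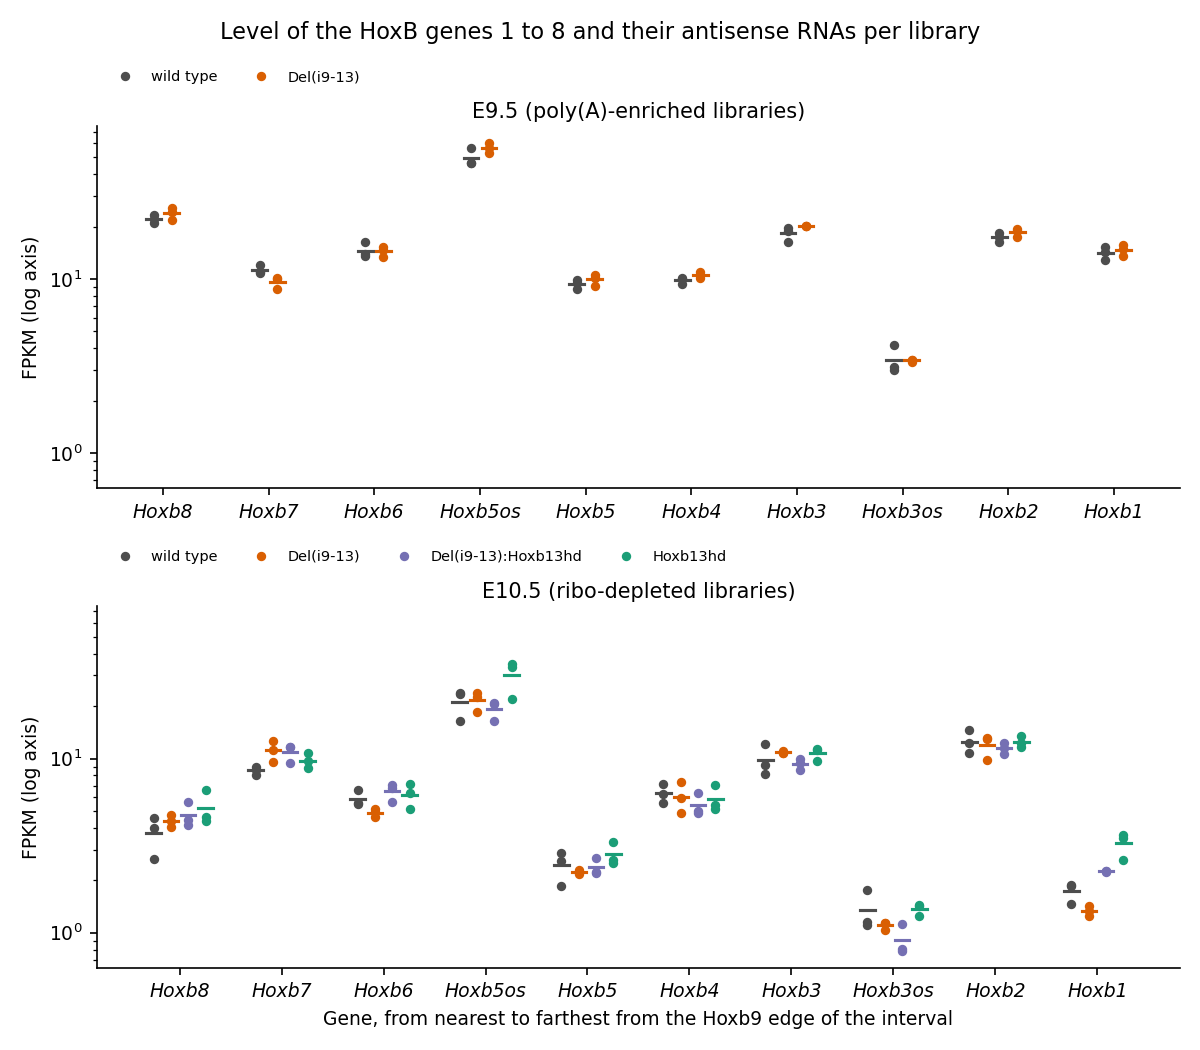
Level of each gene in FPKM on a log axis, with points for single libraries and bars for group means. Coding genes are ordered from nearest to farthest from the Hoxb9 edge of the interval. Hoxb5os is drawn before Hoxb5 and Hoxb3os before Hoxb2, although their starts lie farther from the edge. Hoxb5os is highest and Hoxb3os lowest in each group, and in E10.5 wild type Hoxb1 is the lowest coding gene at 1.74 FPKM.

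Set side by side, wild type levels were higher at E9.5 than at E10.5 for all 10 genes without overlap, but library type differs too and cannot be told apart from stage. The ratio of the means was largest at both ends of the row, 8.16 for Hoxb1 and 5.91 for Hoxb8, and 3.83 for Hoxb5. It was smallest for Hoxb7 at 1.32, Hoxb2 at 1.39 and Hoxb4 at 1.56. In Del(i9-13) libraries Hoxb7 was the exception, with 9.64 ± 0.79 FPKM at E9.5 and 11.2 ± 1.54 FPKM at E10.5, which overlap. No test was made between stages.

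At E9.5 the loss of the interval left the 8 coding genes close to their wild type levels. Hoxb8, the gene next to Hoxb9, had 67.5, 60.4 and 60.8 CPM in wild type and 65.9, 66.4 and 59.4 CPM in Del(i9-13). These overlap, and the fitted log2 fold change was 0.02 (95% interval −0.13 to 0.17). Hoxb1 at the far end had 33.7, 36.9 and 39.1 CPM against 35.2, 39.2 and 39.3 CPM, a log2 change of 0.05 (−0.12 to 0.23). By edgeR's quasi-likelihood test 0 of 10 members passed an adjusted p of 0.05, where 0.362% of all 16041 genes tested did. DESeq2 called 1, Hoxb5os (adjusted p = 0.043), and limma on FPKM called 0. At an unadjusted p under 0.05 there were 3 of 10, against 11.7% of all genes. The median log2 change of the 10 was 0.06, against 0.00 over all genes, and 8 of 10 were positive. Beside this, the neuronal genes summed to 73.3 to 88.7 CPM in wild type and 39.1 to 56.8 CPM in Del(i9-13), and with the tail bud genes given above their part in these values was not tested.

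The 3 genes behind that count had groups that did not overlap, as did 18.9% of all genes. Hoxb5os had 52.2, 48.6 and 49.2 CPM in wild type and 62.1, 62.7 and 56.9 CPM in Del(i9-13). All mutant libraries were higher, with a log2 change of 0.28 (SE 0.06, adjusted p = 0.137). Hoxb3 had 61.6, 70.7 and 72.6 CPM against 77.8, 75.6 and 76.9 CPM (log2 change 0.17, adjusted p = 0.389). Hoxb7 went the other way, with 19.6, 17.8 and 17.5 CPM in wild type and 16.6, 15.9 and 14.2 CPM in Del(i9-13) (log2 change −0.24, adjusted p = 0.392). Hoxb2, Hoxb4, Hoxb5, Hoxb6 and Hoxb3os overlapped between the groups, with log2 changes from −0.04 for Hoxb6 to 0.10 for Hoxb4.

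At E10.5 the same mutation again left the members below the threshold. Against wild type 0 of 10 were called by edgeR, DESeq2 or limma, where 0.488% of 17202 genes were called by edgeR, and 3 of 10 had an unadjusted p under 0.05 against 9.13% of all genes. Near the interval, Hoxb8 had 7.79, 9.82 and 12.03 CPM in wild type and 10.04, 10.7 and 10.6 CPM in Del(i9-13), which overlap (log2 change 0.08, 95% interval −0.24 to 0.40). Hoxb7 had 15.8, 14.9 and 15.8 CPM against 17.2, 22.8 and 20.5 CPM, with all mutant libraries higher (log2 change 0.38, SE 0.13, adjusted p = 0.336). Hoxb6, next along, had 14.5, 12.8 and 16.3 CPM against 12.8, 11.3 and 11.2 CPM (−0.31, SE 0.12, adjusted p = 0.461). At the far end Hoxb1 had 4.44, 5.50 and 5.81 CPM against 4.16, 3.71 and 4.13 CPM, with all mutant libraries lower (−0.39, SE 0.15, adjusted p = 0.425). Hoxb7 and Hoxb1 were the only members whose groups did not overlap, against 13.0% of all genes.

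On the Hoxb13hd background the deletion gave lower mean levels of most members. In Del(i9-13):Hoxb13hd against Hoxb13hd, 8 of 10 log2 changes were negative with a median of −0.25, against −0.01 over all genes, of which 47.7% were positive. By edgeR 0 of 10 were called, where 0.959% of all genes were, while 4 of 10 had an unadjusted p under 0.05 against 15.2% of all genes. DESeq2 called 3, Hoxb1, Hoxb3os and Hoxb5os, and limma called 0. Hoxb3os had 6.38, 6.48 and 7.55 CPM in Hoxb13hd and 3.75, 3.98 and 4.34 CPM with the deletion, all lower (−0.76, SE 0.17, adjusted p = 0.055). Without E10.5 wild type replicate 2 its adjusted p was 0.017, and without Del(i9-13) replicate 1 it was 0.044. Hoxb1 had 10.9, 8.14 and 10.9 CPM against 6.63, 6.28 and 6.42 CPM, again all lower (−0.63, SE 0.14, adjusted p = 0.056, and 0.045 without Del(i9-13) replicate 1). Hoxb5os had 24.9, 41.0 and 43.4 CPM against 23.9, 23.3 and 19.1 CPM (−0.72, SE 0.20, adjusted p = 0.110). Replicate 1 of Hoxb13hd, the library with high heart muscle genes, was the low one, and without it the log2 change was −0.92 with an adjusted p of 0.016. Hoxb3 had 48.7, 43.8 and 51.3 CPM against 42.6, 36.7 and 39.3 CPM and was the fourth member without overlap, against 22.6% of all genes. The same libraries also differed in tissue markers without overlap. Tail bud genes summed to 57.1 to 87.2 CPM in Hoxb13hd and 33.8 to 42.3 CPM with the deletion, spinal cord and neural tube genes to 178 to 217 against 151 to 162 CPM, and neuronal genes to 112 to 181 against 280 to 302 CPM. Of these lists, 7 of 7, 7 of 8 and 0 of 5 log2 changes were negative, with the neural progenitor gene Sox1 called lower (−0.77, adjusted p = 0.047, lost without any 1 of 8 of the 12 libraries) and the neuronal gene Stmn2 called higher (1.11, adjusted p = 0.046, likewise lost without 8). Their part in the members' values was not tested.

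Averaged over both Hoxb13 alleles, the E10.5 deletion effect was negative for 9 of 10 members, with a median of −0.13 against 0.00 over all genes. It was called by edgeR for 0 of 10, where 0.500% of all genes were, while DESeq2 called 2, Hoxb1 and Hoxb3os, and limma called 0. At an unadjusted p under 0.05 there were 3 of 10 against 13.6%. In the same contrast 5 of 5 liver and visceral endoderm genes had positive log2 changes (median 1.55) and 5 of 5 heart muscle genes negative ones (median −0.93). Negative too were 7 of 7 tail bud genes (median −0.64) and 8 of 8 spinal cord genes (median −0.23). Positive were 5 of 5 neuronal genes (median 0.49). The part of these lists was not tested. Of these Sox1 was called lower (−0.64, adjusted p = 0.036, lost without any 1 of 9 of the 12 libraries), and Lhx2, a gene of the forebrain list, was called higher (0.50, adjusted p = 0.0087, kept in 20 of 20 other settings). Lhx2 was also called higher in Del(i9-13):Hoxb13hd against Hoxb13hd (adjusted p = 0.036, kept in 15 of 21) and against wild type (adjusted p = 0.044, kept in 11 of 21). The estimate for Hoxb1 was −0.51 (SE 0.10, adjusted p = 0.053), and its adjusted p was 0.044, 0.037 and 0.036 on leaving out wild type replicate 1, Del(i9-13) replicate 1 or Hoxb13hd replicate 2. For Hoxb3os it was −0.51 (SE 0.12, adjusted p = 0.094). Hoxb7 was the single positive member at 0.23 (SE 0.09, adjusted p = 0.268). A difference of the deletion effect between the Hoxb13 alleles was tested as an interaction, where edgeR, DESeq2 and limma called 0 of 10 and edgeR called 0.523% of all genes. At an unadjusted p under 0.05 there were 2 of 10 against 11.7%, Hoxb5os at −0.84 and Hoxb3 at −0.43.

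**Figure D2:**
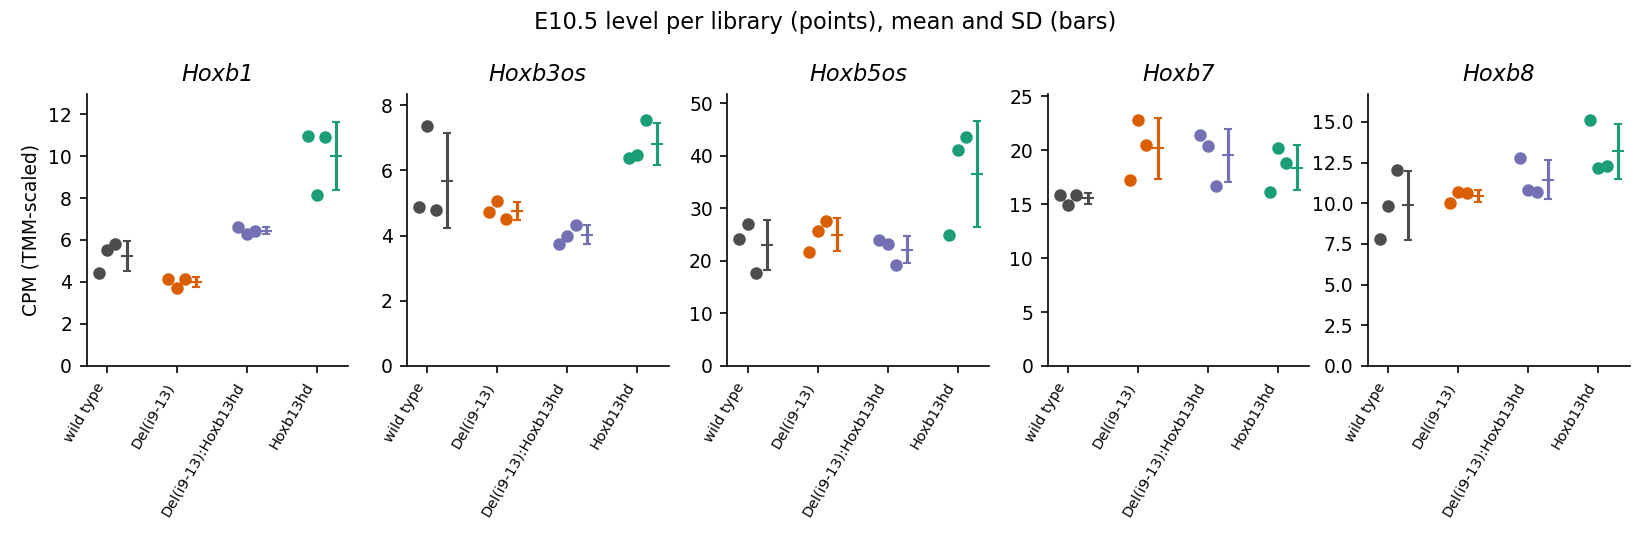
CPM of 5 genes in the 12 E10.5 libraries (points), with mean and SD of 3 libraries beside them. Hoxb1 separates into Del(i9-13) at 3.71 to 4.16 CPM, wild type, Del(i9-13):Hoxb13hd and Hoxb13hd at 8.14 to 10.9 CPM, while the groups of Hoxb7 and Hoxb8 lie closer together.

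The edge of the interval itself did respond. Hoxb9, the next gene toward the interval, had 248.6, 264 and 227 CPM in E9.5 wild type and 184, 189 and 177 CPM in Del(i9-13), a log2 change of −0.43 (SE 0.06, adjusted p = 0.034, lost on leaving out any library but wild type replicate 3, with an adjusted p of up to 0.145). At E10.5 it fell by 0.73 on the log2 scale over both alleles (SE 0.07, adjusted p = 0.00046). Gm53, a noncoding RNA inside the interval, was at 0 to 0.10 CPM in every library with the deletion and at 13.2 to 55.0 CPM elsewhere, and Hoxb13 rose, by 8.74 on the log2 scale at E9.5 and by 6.08 over both alleles at E10.5. The step between Hoxb8 and Hoxb9 was read within each library as a description, chosen after the values were seen. The log2 CPM of Hoxb8 minus Hoxb9 was −1.88, −2.13 and −1.90 in E9.5 wild type and −1.48, −1.51 and −1.58 in Del(i9-13), with no overlap. The shift was 0.45. At E10.5 it was −3.54, −3.34 and −2.78 in wild type and −2.56, −2.23 and −2.30 in Del(i9-13), and −2.65, −3.36 and −3.33 in Hoxb13hd against −2.51, −2.69 and −2.64 with the deletion. Wild type and Del(i9-13) did not overlap, while Hoxb13hd replicate 1 lay among the libraries with the deletion. The mean shift over both alleles was 0.68.

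The hd allele, with the interval in place, went with more Hoxb1 RNA at E10.5. Hoxb1 had 4.44, 5.50 and 5.81 CPM in wild type (5.25 ± 0.72) and 10.9, 8.14 and 10.9 CPM in Hoxb13hd (10.003 ± 1.62), with no overlap. The fitted change was 1.90-fold (95% interval 1.53 to 2.37, log2 0.93, SE 0.15, adjusted p = 0.0098). It was the single member called in this comparison, where 3.01% of all genes were called, and 1 call among 10 genes cannot be set apart from that share. At an unadjusted p under 0.05 there were 3 of 10 against 20.4% of all genes. DESeq2 called 2, Hoxb1 and Hoxb5os, and limma called Hoxb1. The call was kept under 20 of 21 other settings and was lost without wild type replicate 1, the lowest wild type library for Hoxb1 (log2 0.83, adjusted p = 0.051). The same direction was seen where the interval was missing: 4.16, 3.71 and 4.13 CPM in Del(i9-13) against 6.63, 6.28 and 6.42 CPM in Del(i9-13):Hoxb13hd, all higher (log2 0.69, SE 0.15, adjusted p = 0.052). That comparison had 0 of 10 members called by edgeR, where 0.907% of all genes were, 1 by DESeq2 and 1 by limma, in each case Hoxb1, and 2 at an unadjusted p under 0.05 against 16.1% of all genes. For Hoxb1 the adjusted p was 0.048, 0.024 and 0.032 when wild type replicate 1, Del(i9-13) replicate 1 or Hoxb13hd replicate 2 was left out.

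Averaged over both intervals, a contrast added after the values of Hoxb1 were seen, the hd effect on Hoxb1 was 0.81 on the log2 scale (SE 0.10, adjusted p = 0.0017), called in the main setting and in 20 of 20 others, with adjusted p of 2.0e-08 to 0.0071. Hoxb1 was the single member called there by edgeR, DESeq2 or limma, where 6.06% of all genes were called by edgeR. At an unadjusted p under 0.05 there were 2 of 10 against 23.3% of all genes. Outside the members, edgeR also called Hoxb9 higher there (log2 0.35, SE 0.07, adjusted p = 0.021, kept in 15 of 20 other settings). In Hoxb13hd against wild type edgeR did not call Hoxb9 (0.33, adjusted p = 0.099) but called Gm53 higher (1.23, adjusted p = 0.045). The 4 groups of Hoxb1 did not overlap with each other in any pair: Del(i9-13) was lowest, then wild type, Del(i9-13):Hoxb13hd and Hoxb13hd. The counts behind these levels were 82 to 104, 98 to 138, 148 to 161 and 172 to 235 reads per library, in that order. Del(i9-13):Hoxb13hd against wild type, which joins both changes, gave Hoxb1 a log2 change of 0.29 (SE 0.15, adjusted p = 0.437) and called 0 of 10 members by edgeR, DESeq2 or limma, where 0.401% of all genes were called by edgeR, with 2 of 10 at an unadjusted p under 0.05 against 12.5%. Hoxb1 and Hoxb7 were higher and Hoxb3os lower there without overlap, 3 members where 21.5% of all genes had none. These comparisons share libraries, so their estimates are not independent.

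Some tissue markers differed with the hd allele. The 7 tail bud and presomitic mesoderm genes summed to 39.2, 46.0 and 15.4 CPM in E10.5 wild type, and to 57.1, 85.9 and 87.2 CPM in Hoxb13hd. With the deletion they summed to 32.7, 24.6 and 28.9 CPM without hd and 36.2, 42.3 and 33.8 CPM with it. All 7 had a positive log2 change in Hoxb13hd against wild type (median 1.26), and Wnt3a and Fgf8, signals made in the tail bud, passed the test, with adjusted p of 0.049 and 0.037, though not without 9 and 7 of the 12 libraries in turn. The 5 neuronal genes summed to 202 to 318 CPM in wild type and 112 to 181 CPM in Hoxb13hd, and Dcx fell (adjusted p = 0.039, not called without 9 of the 12 libraries in turn). With the deletion the mean neuronal sum was 282 CPM without hd and 292 CPM with it. In the interaction of deletion and hd, edgeR called 0 of these 5 genes. Liver and visceral endoderm genes summed to 178 to 581 CPM in wild type and 37.2 to 113 CPM in Hoxb13hd, without overlap. All 5 had negative log2 changes (median −2.10), as had all 5 heart muscle genes (median −1.55), whose sums overlapped. Of both lists edgeR called 0. The 6 hindbrain genes were at 27.4 to 31.8 CPM in wild type and 29.0 to 32.6 CPM in Hoxb13hd, which overlap. Spinal cord and neural tube genes summed to 150 to 181 CPM in wild type and 178 to 217 CPM in Hoxb13hd, which also overlap. By group means the tail bud sums stood at 28.8 CPM in Del(i9-13), 33.5 in wild type, 37.4 in Del(i9-13):Hoxb13hd and 76.7 in Hoxb13hd, the same order of groups as for Hoxb1. The sums of wild type overlapped those of both groups with the deletion. Within groups the order was not always shared. Wild type replicate 3 had the lowest tail bud sum of its group (15.4 CPM) and the highest Hoxb1 (5.81 CPM). Replicate 2 of Hoxb13hd (85.9 and 8.14 CPM) and of Del(i9-13):Hoxb13hd (42.3 and 6.28 CPM) had the lowest Hoxb1 of its group but not the lowest sum. In Del(i9-13) the libraries kept the same order in both. Krt19, an epithelial keratin of the hindgut list, was also called higher in Hoxb13hd (0.64, adjusted p = 0.013, lost without wild type replicate 1 or 3 or Hoxb13hd replicate 2, with an adjusted p of up to 0.070) and in the averaged hd effect (0.39, adjusted p = 0.017, lost without Del(i9-13) replicate 3). Of the 5 genes of the hindgut list, 2 had positive and 3 negative log2 changes in each of these contrasts, with medians of −0.16 and −0.05. The part of tissue makeup in the Hoxb1 result was not tested.

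**Figure D3:**
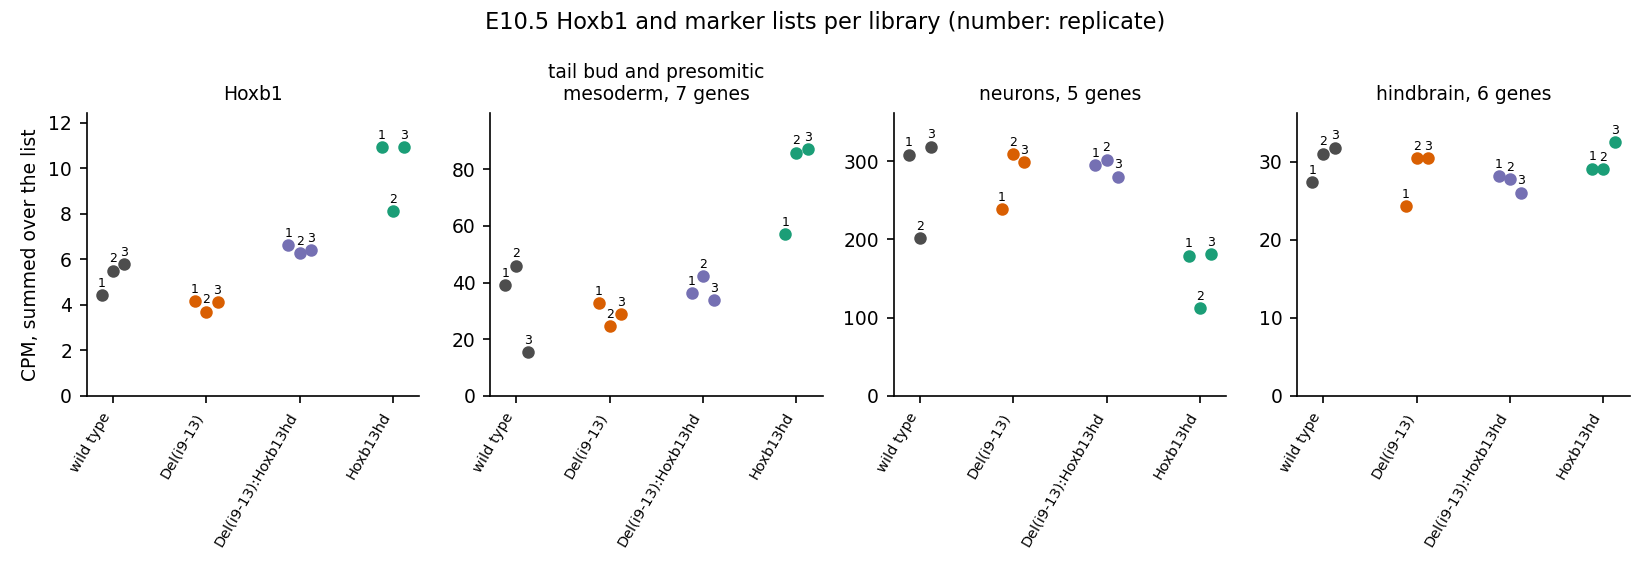
Hoxb1 and the summed CPM of 3 marker lists in the 12 E10.5 libraries, with the replicate number beside each point. Hoxb13hd has the highest Hoxb1 (8.14 to 10.9 CPM) and tail bud levels (57.1 to 87.2 CPM) and the lowest neuronal levels (112 to 181 CPM), and hindbrain levels overlap between wild type and Hoxb13hd.

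No other member passed edgeR's test with hd. Hoxb5os had 24.2, 27.1 and 17.7 CPM in wild type and 24.9, 41.0 and 43.4 CPM in Hoxb13hd, which overlap (log2 0.67, SE 0.20, adjusted p = 0.097). Without Hoxb13hd replicate 1 the change was 0.88 with an adjusted p of 0.017. Hoxb8 had 7.79, 9.82 and 12.03 CPM against 15.1, 12.2 and 12.3 CPM, all higher (log2 0.42, SE 0.15, adjusted p = 0.138), and Hoxb7 was also higher in all 3 libraries (log2 0.24, adjusted p = 0.302). With Hoxb1 these were the 3 members without overlap in Hoxb13hd against wild type, where 25.4% of all genes had none. Hoxb4 and Hoxb6 had log2 changes of 0.00 (95% interval −0.34 to 0.34) and −0.01 (−0.28 to 0.26). Where the interval was missing, Hoxb6 had 12.8, 11.3 and 11.2 CPM without hd and 15.9, 15.2 and 13.7 CPM with it, all higher (log2 0.34, SE 0.12, adjusted p = 0.194), while Hoxb3 and Hoxb3os were lower in all 3 (−0.22 and −0.24). With Hoxb1 these were 4 members without overlap, where 20.3% of all genes had none.

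Effects were then set against distance over the 8 coding genes, as descriptions without a test, since genes of 1 cluster share libraries and neighbours. For the deletion, Pearson's r of the log2 change with distance from the Hoxb9 edge was 0.50 at E9.5 and −0.49 at E10.5, and −0.73 on the Hoxb13hd background. Averaged over both alleles at E10.5 it was −0.69, from a mean log2 change of −0.04 over the 4 nearer genes (Hoxb5 to Hoxb8) to −0.21 over the 4 farther ones (Hoxb1 to Hoxb4). Hoxb1 carried much of this, as r was −0.38 without it. The averaged log2 change was 0.23 at Hoxb7 and −0.51 at Hoxb1. At the other coding genes it lay between −0.20 (Hoxb5) and −0.06 (Hoxb8 and Hoxb3), without a steady fall with distance. For hd, r was 0.42 in Hoxb13hd against wild type and −0.49 without Hoxb1, and the averaged hd effect likewise went from 0.37 to −0.74. Leaving Hoxb1 aside, the averaged E10.5 hd effect was thus larger at the nearer genes, though no member but Hoxb1 was called. The averaged log2 change was 0.27 at Hoxb8, 0.10 at Hoxb7, 0.17 at Hoxb6, 0.14 at Hoxb5, −0.10 at Hoxb4 and −0.01 at both Hoxb3 and Hoxb2. At Hoxb1, the last gene of the row, it was 0.81. The deletion at E9.5 had r of 0.59 without Hoxb1, and of 0.18 to 0.65 with any 1 library left out.

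**Figure D4:**
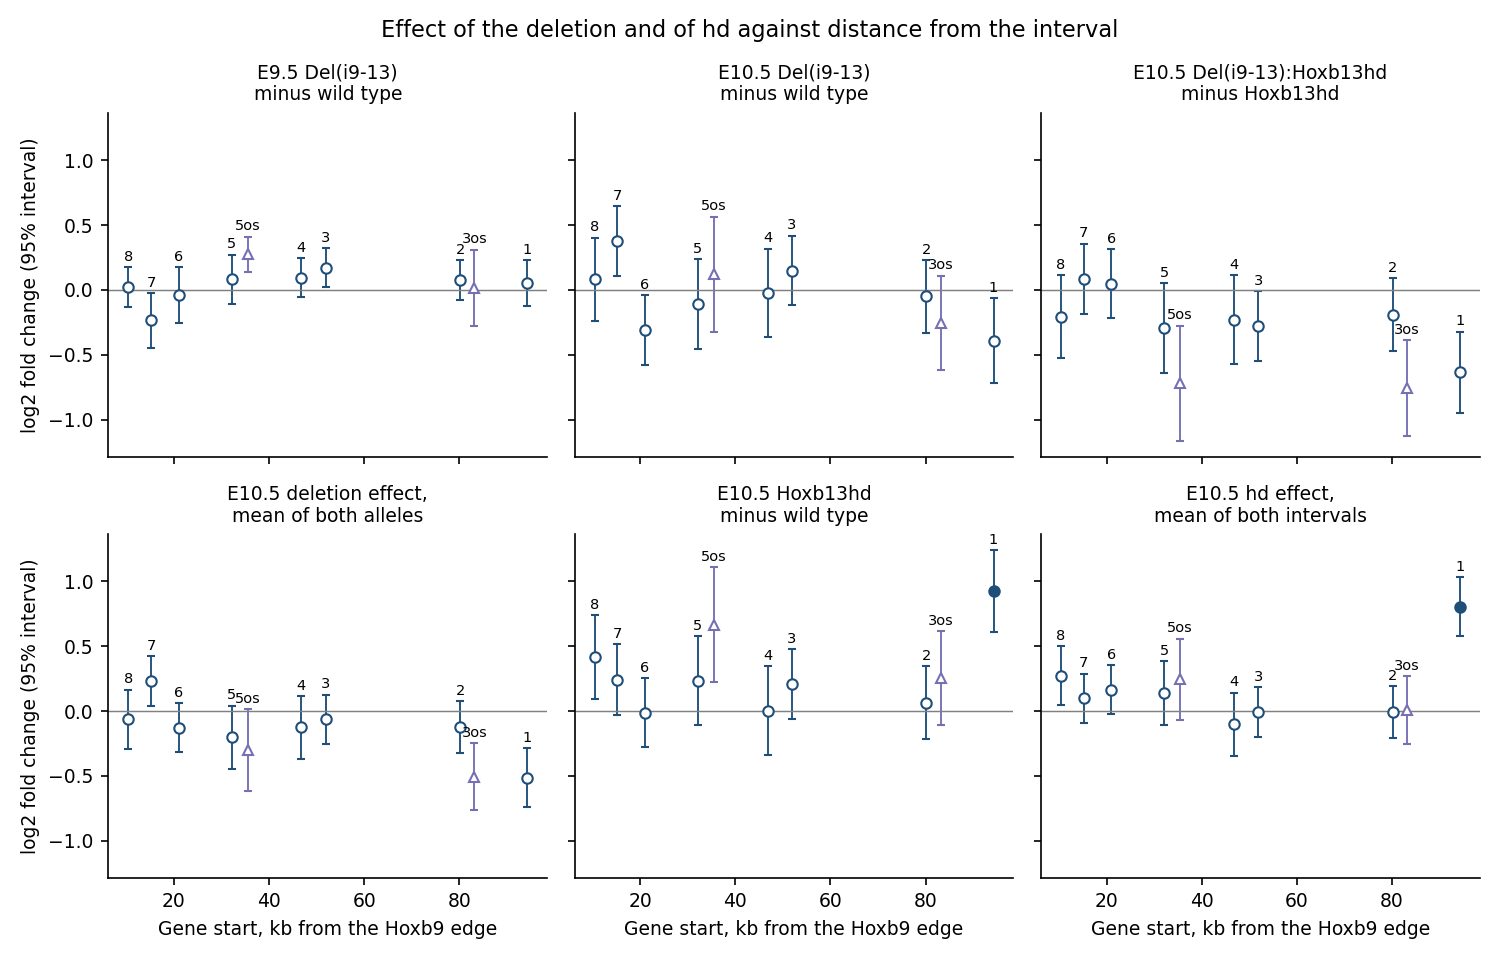
Fitted log2 fold change with its 95% interval against distance of the gene start from the Hoxb9 edge, in 6 comparisons, with circles for coding genes, triangles for antisense RNAs and filled symbols for adjusted p under 0.05. Most intervals cross 0 near and far from the edge, and Hoxb1 at 94.3 kb is the single filled symbol in each of the panels for hd, at 0.93 and 0.81.

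The balance of the row was also taken within each library, as the mean log2 CPM of Hoxb5 to Hoxb8 minus that of Hoxb1 to Hoxb4. It was −0.36, −0.58 and −0.65 in E9.5 wild type and −0.56, −0.63 and −0.82 in Del(i9-13), which overlap. At E10.5 it was −0.76, −0.97 and −0.76 in wild type, and −0.93, −0.83 and −0.98 in Hoxb13hd. With the deletion it was −0.62, −0.77 and −0.83 without hd and −0.72, −0.56 and −0.73 with it. Del(i9-13):Hoxb13hd was above Hoxb13hd in every library, by 0.24 on average, and above wild type in every library, by 0.16. Wild type overlapped both with Del(i9-13) and with Hoxb13hd in this measure.

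Hoxb7 lay below wild type in all Del(i9-13) libraries at E9.5 and above it in all at E10.5. The difference of its deletion effects, E10.5 minus E9.5, was 0.63 (SE 0.15, unadjusted p = 0.0012, adjusted p = 0.268), which did not pass the correction over 17670 genes. Hoxb1 had a difference of −0.43 (SE 0.15, adjusted p = 0.557). By edgeR, DESeq2 and limma 0 of 10 members were called in this test, where 0.0453% of all genes were by edgeR, and 2 of 10 had an unadjusted p under 0.05 against 6.86%.

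The members did not vary as a block. Over 45 pairs of members and all 18 libraries, after removing each stage's mean, the median Pearson's r of log2 CPM was 0.32, with 33 pairs positive. The closest pair was Hoxb4 and Hoxb2, 33.4 kb apart, with r of 0.86, ahead of Hoxb8 and Hoxb5 with 0.71 and Hoxb8 and Hoxb1 with 0.68. The last pair stands at the 2 ends of the row, and its r was 0.72 over the 12 E10.5 libraries and −0.61 over the 6 at E9.5. The most opposed were Hoxb7 and Hoxb5, 16.9 kb apart with Hoxb6 between them, with −0.25. Of 10724 genes outside HoxB with a mean of at least 5 CPM at each stage, those whose log2 CPM was most like the mean of the 8 coding genes over 18 libraries were Pak4 (r of 0.85), Rnf126 (0.82), Maz (0.81), Noa1 (0.81) and Pigw (0.80). These are descriptions over libraries that share their groups, depth and tissue makeup. A further 2 annotated genes lie in the row. The microRNA gene Mir10a, between Hoxb5 and Hoxb4, had 0 to 7 counts per library and the antisense RNA Gm11536, within Hoxb3, 0 to 6.

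Related genes were read for comparison. Among the Hox genes of groups 1 to 8 in the other clusters, Hoxd4 was lower at E10.5 in Del(i9-13):Hoxb13hd against Hoxb13hd (42.1 against 60.4 CPM, log2 −0.52, adjusted p = 0.019, kept in 16 of 21 other settings, lost without replicate 2 or 3 of either group, with an adjusted p of up to 0.103). Hoxd4 was also called lower against wild type (adjusted p = 0.046, kept in 6 of 21 other settings) and in the averaged deletion effect (adjusted p = 0.049, kept in 3 of 20). Of 9 Hox cofactors Pknox1 was lower in Hoxb13hd (log2 −0.27, adjusted p = 0.030, kept in 10 of 21 other settings and lost without any 1 of 8 of the 12 libraries). Of 13 tested regulators of Hox transcription, Cdx1, a homeodomain activator of Hox genes in the posterior embryo, was higher in Hoxb13hd, at 6.56 against 2.94 CPM (log2 1.16, adjusted p = 0.034, kept in 13 of 21 other settings and lost without any 1 of 6 of the 12 libraries), and Cdx2 had a log2 change of 1.55 (adjusted p = 0.084 by edgeR, 0.035 by DESeq2, 0.049 by limma on log2(FPKM + 1)). For the deletion on the Hoxb13hd background edgeR gave Cdx1 and Cdx2 changes of −1.04 and −1.66 with adjusted p of 0.070 and 0.103, and DESeq2 called both lower, with 0.0090 and 0.034. In the averaged hd effect Hoxc6, Rarg and Cdx1 were higher and Pknox1 lower, with adjusted p of 0.033 to 0.045, of which 5 to 9 of 20 other settings kept the call. Of 18 chromatin genes, among them Ctcf and subunits of cohesin, edgeR called 0 in each of the 10 comparisons, where 0 to 6 had an unadjusted p under 0.05, DESeq2 called 0 to 4 and limma 0.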

How the data were processed

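Deposited were a table of read counts per gene and a table of FPKM. The authors trimmed with cutadapt 1.18, aligned with STAR 2.7.10a to mm10 and used Cufflinks 2.2.1, per the submitters' processing notes. The deposited counts are named as HTSeq counts. No source used here states the annotation or the strand setting of the counting. The count values were used as deposited, and the FPKM values, scaled by the authors to transcript length and library size, served to compare levels between genes and stages and for the limma tests.

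Counts were tested with edgeR 4.0.16 (R 4.3.3), quasi-likelihood, TMM scaling, filterByExpr with a minimum count of 10 and a minimum total of 15. The 6 E9.5 and 12 E10.5 libraries were fitted apart, and 12 libraries (wild type and Del(i9-13) at both stages) for the stage interaction. Benjamini-Hochberg adjustment ran over all genes, at a threshold of 0.05. The fit was tested on simulated data. Alternatives were DESeq2 1.42.0, limma 3.58.1 on log2(FPKM + 1) or log2(FPKM + 0.1), no filter, another scaling, only the groups compared, each library left out, a replicate block and, for levels, CPM per kb of annotated exons. CPM are TMM-scaled within a stage. Depth of 19333138 to 35934843 counts limits precision for genes near 100 counts, such as Hoxb1 at E10.5.

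The members and gene lists were chosen with earlier results of these data known. Named were all 10 members, the genes at both edges of the interval, members of the lists that passed the threshold, with Cdx2 chosen after its values were seen, and the 5 genes most like the row. 1 gene of the lists is not reported here.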

Additional observations from a re-analysis of the deposited data

Results flagged for a closer look

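The effect of Del(i9-13) on Hoxb7, the second gene from the interval, pointed opposite ways at the 2 stages. At E9.5 Hoxb7 had 19.6, 17.8 and 17.5 CPM in wild type and 16.6, 15.9 and 14.2 CPM in Del(i9-13), all mutant libraries lower. At E10.5 it had 15.8, 14.9 and 15.8 CPM in wild type and 17.2, 22.8 and 20.5 CPM in Del(i9-13), all mutant libraries higher. The difference of the effects was 0.63 on the log2 scale, with an adjusted p of 0.268 by edgeR, which does not pass the correction over all genes. Stage and library type coincide and cannot be told apart.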

How the results depend on the processing

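Over 1990 values of the 10 genes under 14 to 21 alternatives a comparison, 0 called values turned sign, 27 passed the threshold only under the alternative, 1 lost it and 79 never-called values changed sign. At E9.5 the count of members called went from 0 to 1 with no filter and to 1 with DESeq2. For Hoxb13hd against wild type it went from 1 to 2 with DESeq2, and from 0 to 2 with 1 library left out. For the deletion on the Hoxb13hd background it went from 0 to 2 with no filter, 3 with DESeq2 and 1 with only the groups compared, and from 0 to 2 with 1 library left out. For hd with the interval missing it was 1 with no filter, DESeq2 and limma at either pseudocount, and 0 to 1 with 1 library left out. For the averaged deletion it was 1 with no filter and 2 with DESeq2, and 0 to 1 with 1 library left out. The cause was not tested.

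Without Hoxb1, r of effect with distance was −0.16 for the E10.5 deletion, −0.38 for the averaged deletion, −0.47 for the deletion on the Hoxb13hd background, −0.75 for Del(i9-13):Hoxb13hd against wild type, −0.49 for Hoxb13hd against wild type, −0.57 for hd with the interval missing, −0.74 for the averaged hd effect and −0.38 for the stage difference. With gene order in place of kb, r was −0.31 for Del(i9-13):Hoxb13hd against wild type, 0.30 for Hoxb13hd against wild type, −0.70 for the deletion on the Hoxb13hd background, 0.17 for hd with the interval missing and 0.25 for the averaged hd effect.

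Deviations of same-numbered libraries correlated at −0.0003 to 0.14 (median 0.09) over 3 pairs at E9.5. At E10.5 they correlated at −0.23 to 0.16 (median 0.06) over 18 pairs. Libraries with different numbers correlated at −0.22 to 0.14 (median −0.04) over 6 pairs at E9.5. At E10.5 the range was −0.19 to 0.21 (median 0.01) over 36 pairs. Whether same-numbered libraries are paired cannot be told from these values. With a replicate block, edgeR called 79 genes at E9.5 (58 without), 451 for Hoxb13hd against wild type (517 without) and 223 for the deletion on the Hoxb13hd background (165 without), and no member's call changed. Counts over all genes ranged from 20 to 537 at E9.5, 40 to 285 for the E10.5 deletion, 14 to 313 for Del(i9-13):Hoxb13hd against wild type, 51 to 1194 for Hoxb13hd against wild type, 36 to 644 for the deletion on the Hoxb13hd background, 58 to 1453 for hd with the interval missing, 21 to 382 for the averaged deletion, 40 to 287 for the interaction, 223 to 2507 for the averaged hd effect and 1 to 69 for the stage difference.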
